A study of Homo sapiens with 12 samples.

Results

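The Fc receptor-like (FCRL) family was followed in 2 diffuse large B-cell lymphoma lines with and without selinexor, an inhibitor of XPO1, the main receptor for protein export from the nucleus. The 7 members were the rows of the deposited table named FCRL1, FCRL2, FCRL3, FCRL4, FCRL5, FCRLA and FCRLB, out of 58302 genes in all. Members were chosen by gene name alone, but the family was put forward with the counts of these 4 groups and their changes already known. Its calls below are therefore a description of these libraries and not independent evidence about the family.

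The FCRL genes encode relatives of the classical receptors for the Fc part of antibodies, and most of them are expressed mainly in B cells. FCRL1 to FCRL5 are surface proteins whose tails carry tyrosine motifs that recruit kinases such as SYK or phosphatases such as SHP-1, so they can raise or dampen signalling through the B-cell receptor. FCRLA and FCRLB lack a membrane anchor and stay inside the cell, where FCRLA lies in the endoplasmic reticulum and binds immunoglobulin chains.

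The groups were untreated OCI-LY3, selinexor-treated OCI-LY3, untreated SU-DHL6 and selinexor-treated SU-DHL6, with 3 RNA sequencing libraries each and genotype WT in all 12. OCI-LY3 is an established line labelled as the activated B-cell (ABC) type of the lymphoma, and SU-DHL6 is one labelled as the germinal centre B-cell (GCB) type. The treatment protocol names 300 and 100 nM selinexor and 24 and 48 h, without saying which library had which dose or time, and each type is represented by 1 line. Controls were kept without drug for the same durations. Nothing says that the 3 libraries of a group came from separate cultures, so the p-values measure only the spread between these libraries, which may be technical.

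Library totals ranged from 14210200 to 16405842 counts. The line labels were checked against marker genes. Summed germinal centre markers lay at 20.1 to 23.5 CPM (a gene's count relative to the scaled library total, set to a common total) in untreated OCI-LY3 and at 450.4 to 471 in untreated SU-DHL6, and summed activated-type markers at 3280 to 3342 and 732 to 838. The B-cell markers MS4A1, CD79A, CD79B, PAX5 and CD22 were detected in all 4 groups. Summed markers of T cells, NK cells and of monocytes and granulocytes stayed at or below 2.85, 0.407 and 4.61 CPM. On the fourth principal component, untreated SU-DHL6 replicate 1 scored -41.5, apart from its replicates at 17.5 and 16.2. Treated OCI-LY3 replicate 3 scored -25, its replicates 12.6 and 8.3. Responses measured with either library are given without it where a value moved by over 1.5 times or a call changed, and for the largest changes.

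FCRL1 to FCRL5 form a tight group on chromosome 1 (GRCh38, minus strand), in the order FCRL5 (157513377 to 157552520), FCRL4 (157573749 to 157598080), FCRL3 (157674321 to 157700857), FCRL2 (157745733 to 157777132) and FCRL1 (157794403 to 157820105). FCRLA (161706972 to 161714352) and FCRLB (161721563 to 161728143) lie as neighbours further along on the plus strand, beside the classical Fc gamma receptor genes. FCRL6 (159800511 to 159816251, plus strand), a relative known from NK and T cells, is not a member here. It had 0 counts in all 12 libraries.

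Promoter stretches of 5 members are shown because they carry the letter matches that the members share or lack. They are from RefSeq (GRCh38.p14), which held all 7 members, and each runs 5′ to 3′ on the gene's own strand from 100 bases before the first listed start site through 20 bases from it. Capitals mark ACTTCC, the reverse complement of GGAAGT, a core bound by ETS factors such as PU.1 and SPI-B, or ATTTGCAT, the reverse complement of the octamer ATGCAAAT bound by OCT2.
FCRL5 (chr1:157552496-157552615, minus strand): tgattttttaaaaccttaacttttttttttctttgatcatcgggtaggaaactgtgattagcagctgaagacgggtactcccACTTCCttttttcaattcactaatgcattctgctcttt
FCRL1 (chr1:157820101-157820220, minus strand): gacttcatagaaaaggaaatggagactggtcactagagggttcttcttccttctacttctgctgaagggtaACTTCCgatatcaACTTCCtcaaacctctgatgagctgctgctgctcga
FCRLA (chr1:161707129-161707248, plus strand): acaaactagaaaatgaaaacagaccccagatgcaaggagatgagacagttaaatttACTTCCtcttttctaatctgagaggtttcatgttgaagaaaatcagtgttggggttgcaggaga
FCRLB (chr1:161721444-161721563, plus strand): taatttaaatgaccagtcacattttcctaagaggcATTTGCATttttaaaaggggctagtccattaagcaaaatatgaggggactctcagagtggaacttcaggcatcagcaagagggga
FCRL3 (chr1:157700750-157700869, minus strand): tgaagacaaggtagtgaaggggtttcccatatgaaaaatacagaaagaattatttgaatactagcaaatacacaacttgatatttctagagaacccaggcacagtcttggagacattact

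The ETS core was found in the 300-base windows (250 bases before to 50 from the start) of 5 of 7 members, FCRL1, FCRL2, FCRL4, FCRL5 and FCRLA, searching both strands. Among 35116 windows of all genes, 22.8% held it, and among the 4373 windows whose GC content lay within the members' range of 36.3% to 43.3%, 22.0% did. In all 5 members the match read ACTTCC on the gene's own strand. In each, at least 1 lay within the last 60 bases before the RefSeq start. For FCRLA that start lies 257 bases after the gene start of 161706972 given above, so its match lies inside the gene as placed there. FCRL4 and FCRL5 carried the ETS core at the same place, from base -18 to -13. FCRL1 had 3 matches in its window, a number reached by 0.646% of all windows. The octamer occurred in FCRLB alone among the first windows of the members, from base -65 to -58, and in 1.77% of all windows. CAGCTG, a letter form of the E-box bound by E2A, occurred in the first windows of FCRL3, FCRL5 and FCRLA (17.9% of all windows). FCRLB lacked it in its first window but held it in windows 2 and 3, at later listed start sites. Searches for the EBF1 palindrome, the composite of ETS and IRF factors, the kappaB site of NF-kB and TATAAA found no match in the 7 first windows, against 1.21%, 0.615%, 1.61% and 11.5% of all windows. The composite and the kappaB site share the letters GGAA with the ETS core. A match is only a run of letters, and no binding was measured here.

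**Figure D1:**
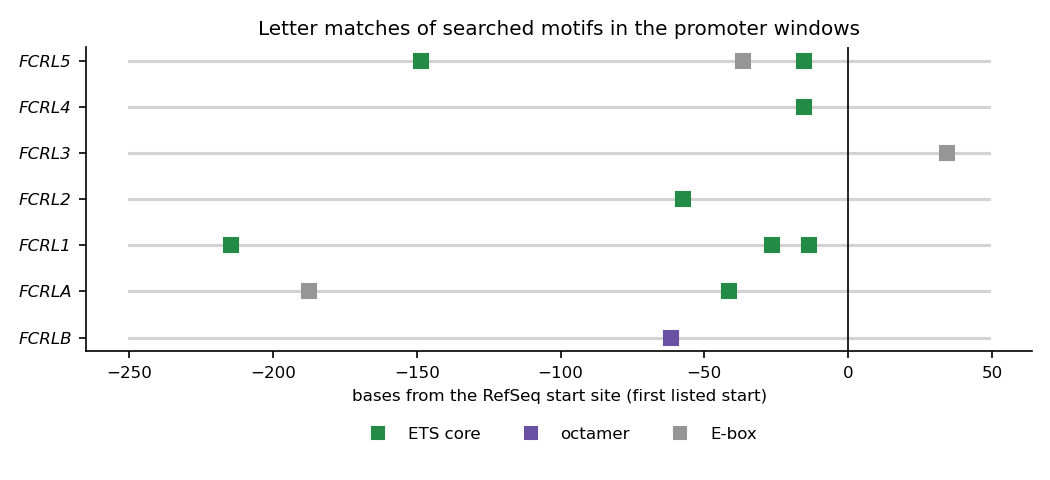
Letter matches in the 300-base promoter window of each member, by distance in bases from the RefSeq start site. The ETS core (green) lies shortly before the start in FCRL1, FCRL2, FCRL4, FCRL5 and FCRLA, the octamer (purple) is found in FCRLB, and grey marks the E-box.

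The lines differed most in the surface receptors FCRL1 to FCRL5. In untreated cells, all 7 members passed the test between the lines (edgeR quasi-likelihood test over 16474 genes, Benjamini-Hochberg adjusted p under 0.05), 6 lower in OCI-LY3 and FCRLB higher. Of all genes tested, 67.3% passed this test, 33.7% lower and 33.6% higher in OCI-LY3. Within each line, a lower level can mean fewer cells with the RNA or less RNA per cell, which bulk libraries cannot tell apart.

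FCRL3, a receptor with both activating and inhibitory tail motifs, was the most highly counted member in SU-DHL6. Untreated SU-DHL6 libraries held 537.5, 443 and 444 CPM, and untreated OCI-LY3 libraries held 0, 0 and 2 counts. The ratio was 10010 with an exact 95% counting interval of 2771 to 82660 (adjusted p = 2.43e-13). An antisense gene, AL356276.1, overlaps FCRL3 and shares 5.31% of its transcribed 50-base words. Whether the counting used strand is not given in the sources used here, but AL356276.1 itself had no more than 33 counts in any library.

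FCRL1, an activating receptor of the B-cell surface, gave 79.96, 62.3 and 59.6 CPM in untreated SU-DHL6 and a single count in 1 of 3 untreated OCI-LY3 libraries. Its ratio was 2841 (counting interval 509.5 to 112200, adjusted p = 1.85e-11). FCRL2, whose tail carries inhibitory motifs, gave 122.5, 103.5 and 99.6 CPM in untreated SU-DHL6 and 0.905, 1.05 and 0.882 CPM in untreated OCI-LY3. It was 113.6-fold lower in OCI-LY3 (log2 -6.83 ± 0.16 SE, adjusted p = 2.15e-12). No library of one line came near the other for either gene.

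FCRL4, an inhibitory receptor known from memory B cells of mucosal tissue, was scarce in SU-DHL6 and had no count in OCI-LY3. Its untreated SU-DHL6 libraries held 3.39, 2.92 and 2.53 CPM. Against the floor of 3 counts over the group it was at least 41.6-fold lower in OCI-LY3 (adjusted p = 1.7e-06). The 0 counts of OCI-LY3 allow up to 0.0711 CPM in untreated and 0.0761 CPM in treated cells, for counting error only.

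FCRL5, a receptor that binds IgG and also marks plasma cells, was present in both lines. Untreated SU-DHL6 libraries held 66.8, 50.8 and 51.4 CPM and untreated OCI-LY3 libraries 2.79, 1.47 and 3.97 CPM. The difference was -4.36 ± 0.26 SE on the log2 scale, 20.6-fold lower in OCI-LY3 (adjusted p = 3.64e-09).

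The intracellular members differed less between the lines. FCRLA gave 102, 89.9 and 98.0 CPM in untreated OCI-LY3 against 214.8, 205.3 and 221 in untreated SU-DHL6 (log2 -1.15 ± 0.13 SE, adjusted p = 3.01e-06). FCRLB gave 8.01, 8.21 and 6.76 CPM in untreated OCI-LY3 against 3.59, 4.72 and 5.13 in untreated SU-DHL6 (log2 0.77 ± 0.20 SE, adjusted p = 0.00311). The libraries of the lines did not overlap for any of the 7 members, nor for 70.9% of all genes tested.

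**Figure D2:**
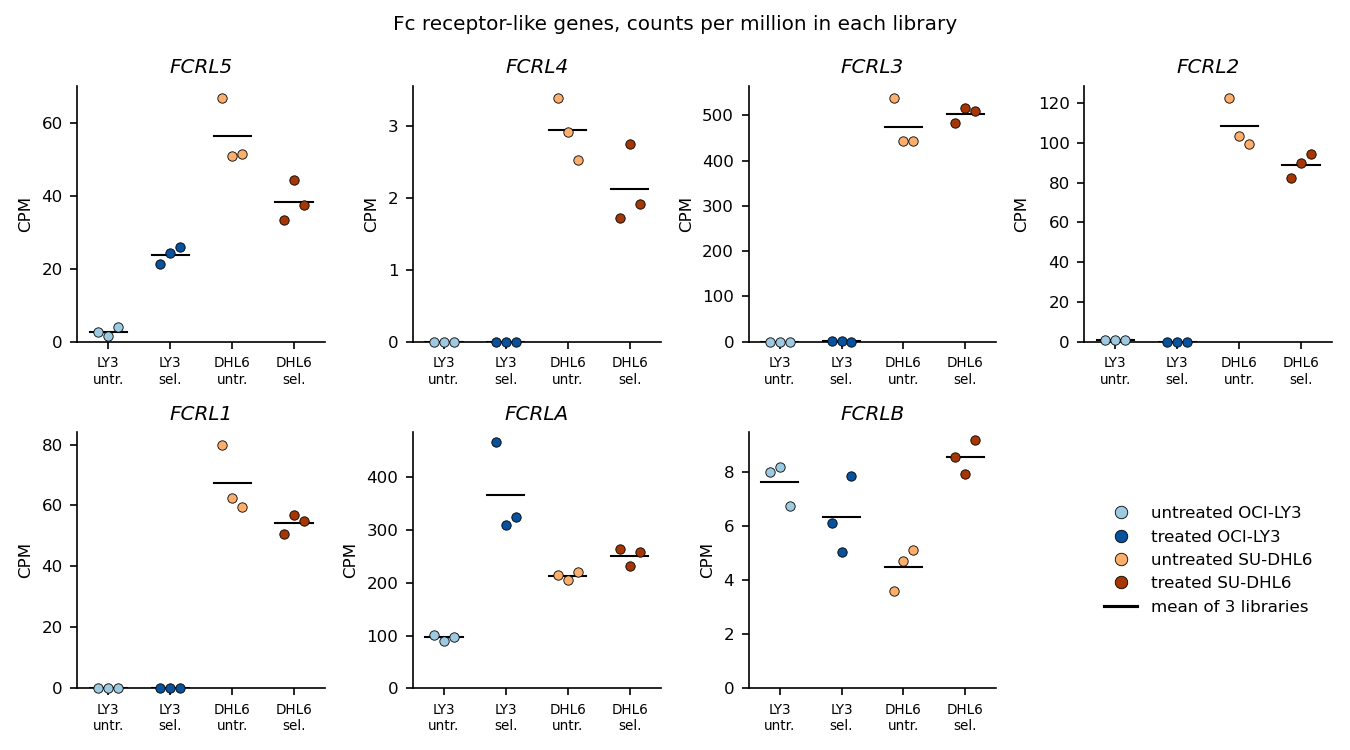
CPM of each member in each library, with 3 points per group and a line at their mean; each panel starts at 0 and has its own scale. FCRL1 to FCRL4 sit at or near 0 in OCI-LY3, FCRL5 and FCRLA rise there with selinexor, and FCRLB rises in SU-DHL6.

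Set per length, FCRLA was a main member in both lines, and the lines differed in the share of the surface receptors. As CPM per kb of merged exons (a level comparable between genes), FCRLA made up 89.7% ± 0.93 (SD, n = 3) of the summed family level in untreated OCI-LY3, FCRLB 9.02% ± 1.18 and the 5 surface receptors together 1.28% ± 0.26. In untreated SU-DHL6 the surface receptors made up 63.3% ± 2.93, led by FCRL3 with 39.5% ± 1.44, and FCRLA 35.7% ± 2.71. The summed family level was 32.9 ± 1.86 in untreated OCI-LY3 and 183.5 ± 14.4 in untreated SU-DHL6. In untreated SU-DHL6 the order from the top was FCRL3, FCRLA, FCRL2, FCRL1, FCRL5, FCRLB and FCRL4, and the ranges of FCRL2 and FCRL1 overlapped. In untreated OCI-LY3 it was FCRLA, FCRLB, FCRL5 and FCRL2, and the last 2 overlapped.

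The order per length depended in places on how length was counted. The deposited FPKM values divide by the sum of all distinct exons of a gene, which counts overlapping exons repeatedly and exceeds the merged length by 1.274 (FCRL4) to 2.757 times (FCRL1). By FPKM, FCRL3 stood at 44.0 ± 6.69 and FCRLA at 24.2 ± 1.24 in untreated SU-DHL6. Per merged exon their levels were 72.6 ± 8.33 and 65.3 ± 2.44. In treated SU-DHL6 they were 77.0 ± 2.75 and 76.6 ± 5.13 with overlapping libraries, while by FPKM FCRL3 stayed above FCRLA in every library.

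**Figure D3:**
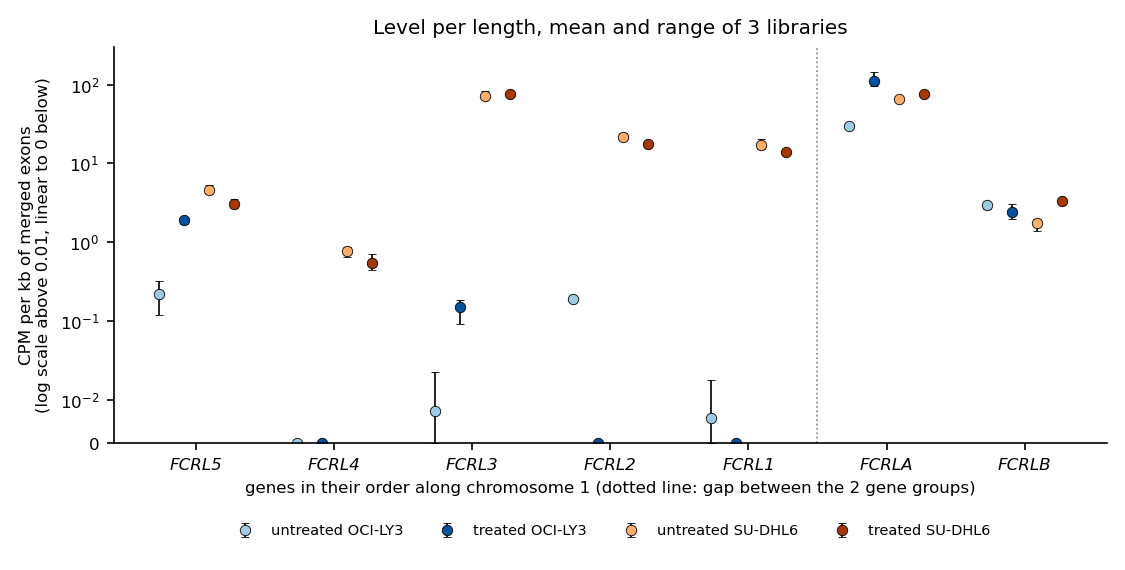
Level per length of each member in the 4 groups, as CPM per kb of merged exons on a log axis that turns linear below 0.01; points are means and bars the range of 3 libraries. FCRL1 to FCRL4 are far lower in OCI-LY3 (blue) than in SU-DHL6 (orange), and FCRLA and FCRLB lie closer together. FCRL5 is far lower in OCI-LY3 only in untreated cells. With selinexor its means are 1.92 in OCI-LY3 and 3.09 in SU-DHL6.

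Under selinexor, FCRLA and FCRL5 rose in OCI-LY3, while FCRLB did not pass the test. In this line 4 of 7 members passed it, 3 higher and 1 lower. Of all genes tested, 44.4% passed, 22.2% higher and 22.2% lower, and nothing is read from the members' count beside it. The libraries of 4 members did not overlap between treated and untreated cells, against 57.5% of all genes.

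FCRLA rose from 102, 89.9 and 98.0 CPM in untreated OCI-LY3 to 466, 310.1 and 325 in treated OCI-LY3. Every treated library lay above every untreated one, and the first treated library was the highest. The rise was 3.8-fold (log2 1.93 ± 0.14 SE, adjusted p = 9.59e-08). FCRLA had 1280 to 1464 counts per untreated library, so its level is among the better counted of the family.

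FCRL5 rose from 2.79, 1.47 and 3.97 CPM to 21.2, 24.2 and 26.0 in OCI-LY3. The groups were far apart, although untreated libraries held only 21 to 54 counts. The rise was 8.68-fold (log2 3.12 ± 0.25 SE, adjusted p = 5.5e-07). Its treated level stayed below the 33.3, 44.3 and 37.5 CPM of treated SU-DHL6 (log2 -0.69 ± 0.21 SE, adjusted p = 0.0101).

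FCRL2 and FCRL3 also passed the test in OCI-LY3 at very low levels. FCRL2 had 13, 15 and 12 counts in the untreated libraries and 0 in each treated one, which is at least 12.4-fold lower against a floor of 3 counts over the group (adjusted p = 2.11e-06). FCRL3 had 0, 0 and 2 counts untreated and 15, 16 and 8 counts treated, a ratio of 20.9 with a counting interval of 5.41 to 178.5 (adjusted p = 6.94e-05). Even after treatment FCRL3 stood at 0.991 ± 0.336 CPM (SD, n = 3), against 503 ± 17.9 in treated SU-DHL6.

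FCRLB gave 8.01, 8.21 and 6.76 CPM untreated and 6.13, 5.04 and 7.85 treated, with overlapping libraries (log2 -0.27 ± 0.19 SE, adjusted p = 0.277). FCRL1 and FCRL4 had too few counts in OCI-LY3 for a fold change. FCRLA made up 96.0% ± 1.05 of the family level in treated OCI-LY3, and the summed level was 117 ± 26.1 CPM per kb. Without replicate 3 of the treated cells, which stands apart, FCRLA and FCRL5 rose by 2.01 and 3.05 on the log2 scale (adjusted p = 3.78e-07 and 5.21e-06), and FCRLB differed by -0.45 (adjusted p = 0.0969).

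In SU-DHL6, FCRLB was the member that rose. There 2 of 7 members passed the test, 1 higher and 1 lower, while 43.2% of all genes tested did, 20.4% higher and 22.8% lower. The libraries of 5 members did not overlap between treated and untreated cells, against 51.1% of all genes.

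FCRLB rose from 3.59, 4.72 and 5.13 CPM to 8.58, 7.95 and 9.20 in SU-DHL6. All treated libraries lay above all untreated ones. The rise was 1.91-fold (log2 0.94 ± 0.20 SE, adjusted p = 0.00148) on 53 to 172 counts per library. Without replicate 1 of the untreated cells, which stands apart, it was 0.79 (adjusted p = 0.00654).

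FCRL5 passed the test narrowly in the other direction in SU-DHL6. Its libraries held 66.8, 50.8 and 51.4 CPM untreated and 33.3, 44.3 and 37.5 treated (log2 -0.55 ± 0.21 SE, adjusted p = 0.0457). The first untreated library, which stands apart, was the highest, and without it the difference was -0.42 with adjusted p = 0.147. That library was also the highest of its group for FCRL1, FCRL2, FCRL3 and FCRL4, with a summed level of FCRL1 to FCRL5 of 810.2 CPM against 662 and 657. Its part in the other differences was not tested beyond leaving it out.

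FCRL2, at 122.5, 103.5 and 99.6 CPM untreated and 82.3, 90.1 and 94.4 treated, missed the threshold (log2 -0.29 ± 0.11 SE, adjusted p = 0.0523). For FCRL1, the libraries went from 79.96, 62.3 and 59.6 CPM to 50.7, 56.9 and 55.0 (log2 -0.31 ± 0.15 SE, adjusted p = 0.11). Without untreated replicate 1, the values were -0.20 for FCRL2 (adjusted p = 0.136) and -0.18 for FCRL1 (adjusted p = 0.33). Without treated OCI-LY3 replicate 3, FCRL2 passed the test (-0.29, adjusted p = 0.0464), and so it did with RLE scaling (adjusted p = 0.0486). With all libraries, both genes had treated libraries that all lay below the untreated ones without passing the test.

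FCRLA gave 214.8, 205.3 and 221 CPM untreated and 263, 231.8 and 258 treated in SU-DHL6 (log2 0.23 ± 0.13 SE, adjusted p = 0.175). FCRL3, at 483, 517 and 509.8 CPM in treated libraries, differed by 0.08 ± 0.14 SE (adjusted p = 0.68), and by 0.18 without untreated replicate 1 (adjusted p = 0.362). FCRL4 held 1.72, 2.76 and 1.92 CPM after treatment (log2 -0.47 ± 0.29 SE, adjusted p = 0.233). These 3 did not pass the test with the scaling used.

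Scaling mattered for this line. Dividing by total counts instead of TMM-scaled totals moved the median change of all genes by 0.22 in SU-DHL6 and -0.074 in OCI-LY3 on the log2 scale. With it, FCRLA passed the test in SU-DHL6 (0.50, adjusted p = 0.00557), FCRL5 no longer did (-0.29, adjusted p = 0.292), and the values of FCRL1 and FCRL2 were -0.05 and -0.02. FCRLB kept its rise (1.21, adjusted p = 0.000188).

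**Figure D4:**
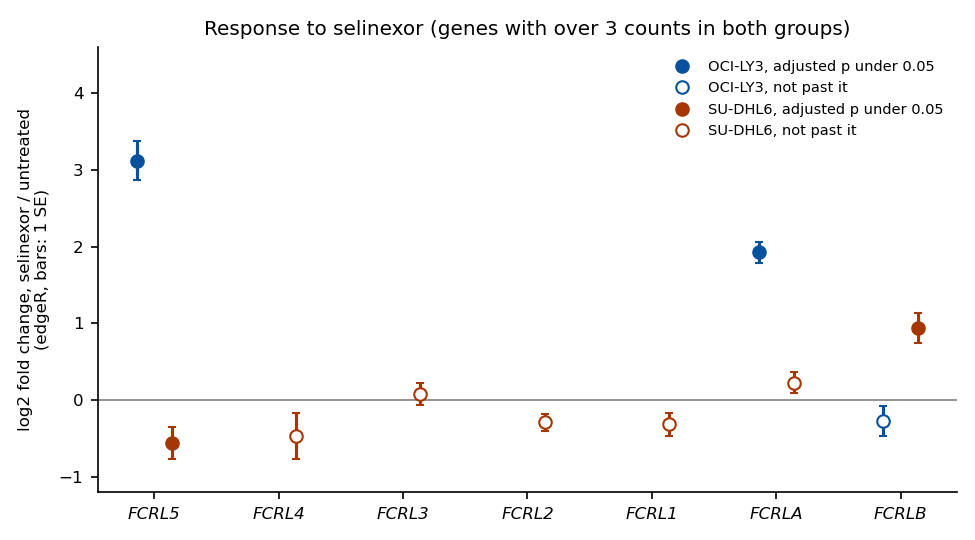
Log2 fold change of selinexor-treated against untreated cells for members with over 3 counts in both groups, with bars of 1 SE; filled points passed the adjusted p of 0.05. FCRL5 and FCRLA are high in OCI-LY3 (3.12 and 1.93), and FCRLB is the high one in SU-DHL6 (0.94).

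The responses of the lines differed for 5 of 7 members, by the test of the difference itself (SU-DHL6 minus OCI-LY3), which 36.9% of all genes passed, 17% higher and 19.9% lower in SU-DHL6. FCRL5 responded less in SU-DHL6 by -3.67 ± 0.33 SE (adjusted p = 3.31e-06) and FCRLA by -1.70 ± 0.19 SE (adjusted p = 1.33e-05). FCRLB went the other way, by 1.21 ± 0.28 SE (adjusted p = 0.00341). FCRL2 and FCRL3 also passed (adjusted p = 1.18e-05 and 0.000198), but at least 1 of their OCI-LY3 groups held 3 counts or fewer, so their fitted size is not a measure of the difference. Without untreated SU-DHL6 replicate 1 the differences of FCRL5, FCRLA and FCRLB were -3.54, -1.70 and 1.06, and without treated OCI-LY3 replicate 3 they were -3.61, -1.78 and 1.39, all past the test.

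Between the treated lines, 6 of 7 members passed the test, 1 higher and 5 lower in OCI-LY3. Of all genes tested 72% did, 36.2% higher and 35.8% lower. The libraries of the lines did not overlap for any of the 7 members, nor for 76% of all genes tested. FCRLA, lower in untreated OCI-LY3, was higher in treated OCI-LY3 than in treated SU-DHL6 (log2 0.55 ± 0.13 SE, adjusted p = 0.00183), though not with total-count scaling (0.10, adjusted p = 0.501). FCRLB had -0.44 ± 0.19 SE (adjusted p = 0.0549), and with total-count scaling it passed (-0.88, adjusted p = 0.000763). FCRL3 was 504-fold lower in treated OCI-LY3 (adjusted p = 2.56e-13). FCRL1, FCRL2 and FCRL4, with 0 counts there, were at least 712-fold, 1170-fold and 28.1-fold lower.

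Genes of the signalling partners of FCRL receptors were listed as 25 genes of B-cell receptor signalling and of tail-binding kinases and phosphatases. All were tested, and LAIR1, an inhibitory receptor, had 0 counts in OCI-LY3. With selinexor, 6 were higher and 4 lower in OCI-LY3 (median log2 0.07, against 0.00 over all genes tested), where 22.2% of all genes were called each way. In SU-DHL6, 5 were higher and 11 lower (median -0.28, against 0.00), where 20.4% of all genes were called higher and 22.8% lower. The same shares stand beside the counts of the next 3 lists. CD79B, the signalling chain of the B-cell receptor, rose in OCI-LY3 (1.74 ± 0.11 SE, adjusted p = 2.58e-08) and fell in SU-DHL6 (-0.58 ± 0.10, adjusted p = 0.000436). SYK, the kinase that binds activating motifs, rose in OCI-LY3 (0.70 ± 0.08, adjusted p = 9.15e-06). FYN, a Src family kinase, fell in SU-DHL6 (-1.47 ± 0.20, adjusted p = 3.92e-05). LILRB1, another inhibitory receptor, fell in OCI-LY3 (-1.56 ± 0.24, adjusted p = 0.000132).

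Other genes for Fc receptors and antibody-binding proteins numbered 17, of which 10 passed the filter on low counts. In OCI-LY3, 4 were higher and 3 lower (median log2 0.55 over the tested ones). In SU-DHL6, 3 were higher and 1 lower (median 0.00). JCHAIN, which joins IgM and IgA chains, rose from 0.544 to 33.2 mean CPM in OCI-LY3 (log2 5.91 ± 0.20 SE) and from 169 to 264 in SU-DHL6 (0.65 ± 0.12). FCGRT, which recycles IgG, rose in OCI-LY3 (2.10 ± 0.21, adjusted p = 2.39e-06), and TRIM21, an antibody receptor of the cytosol, rose in both lines (1.32 ± 0.13 and 0.90 ± 0.13). PIGR and FCAMR, which bind polymeric antibodies, fell in OCI-LY3 (-3.60 ± 0.35 and -3.51 ± 0.33). FCER2, the low-affinity IgE receptor CD23, fell in both lines (-0.97 ± 0.26 and -1.29 ± 0.30).

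Among 16 B-cell transcription factors, 15 of them tested, 7 were higher and 3 lower in OCI-LY3 (median log2 0.18). In SU-DHL6, 8 passed the test and each of them was lower (median -0.43), against 22.8% of all genes called lower and 20.4% higher. SPIB, an ETS factor, rose in OCI-LY3 (0.81 ± 0.11, adjusted p = 3.38e-05) and fell in SU-DHL6 (-1.11 ± 0.11, adjusted p = 2.37e-06). BACH2, a repressor that holds back plasma cell development, did likewise (0.85 ± 0.13 and -1.07 ± 0.12). IRF4, a factor of activated B cells and plasma cells, fell in both lines (-0.99 ± 0.08 in OCI-LY3 and -0.51 ± 0.08 in SU-DHL6). TCF3, which encodes E2A, fell in OCI-LY3 (-1.38 ± 0.12), from 422 to 162 mean CPM, and had 494.8 and 238.4 mean CPM in untreated and treated SU-DHL6.

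Of 20 other genes of the same stretch of chromosome 1, 9 passed the filter. In OCI-LY3, CD1D rose (2.54 ± 0.47, adjusted p = 0.000592), and DUSP12 (-0.55 ± 0.15) and CD1C (-1.62 ± 0.44) fell. In SU-DHL6, 3 were higher, among them ETV3 (0.77 ± 0.11), an ETS repressor, and HSPA6, a heat shock protein gene with 2 counts over the untreated and 70 over the treated libraries. The medians over the tested neighbours were -0.14 and 0.16.

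The genes most like FCRL5, FCRLA and FCRLB were sought among 10607 protein-coding genes by the root mean square difference of centred log2 CPM over the 12 libraries. The closest to FCRL5 were XYLT1, TNFRSF17 and STK17A (0.384, 0.479 and 0.585). TNFRSF17, the plasma cell receptor BCMA, had mean CPM of 6.94 and 44.4 in untreated and treated OCI-LY3 and 75.1 and 47.7 in SU-DHL6. It was 1 of 4 plasma cell markers listed, of which 1 was called higher and 1 lower in OCI-LY3. There SDC1 had 3.87 and 2.08 mean CPM in untreated and treated cells, PRDM1 34.4 and 35.3, and MZB1 17.1 and 18.8. In SU-DHL6, 1 of the 4 was called higher and 2 lower. FCRLA was closest to MARCH8, SLC9A7 and CRTC1 (0.2, 0.217 and 0.224), and FCRLB to CD3EAP, FKBP7 and UBE2Q2 (0.187, 0.201 and 0.21). No genes are named for FCRL1 to FCRL4, whose OCI-LY3 counts at or near 0 leave the measure to the prior count.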

How the data were processed

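Libraries were made from 1.3 µg RNA with a SMARTER mRNA-seq kit, per the labels' protocols. The authors deposited whole-number read counts per gene and FPKM values for 12 libraries, per the file headers. Aligner, counter and strandedness were not given in the sources used here. GRCm38 and mm10 are the builds listed in the submitters' processing notes, but the gene IDs are human and 97.4% of 58039 IDs found in GENCODE 29 have its GRCh38 coordinates. Over 15596 genes with at least 100 counts, the length implied by the deposited FPKM lay within 1% of the summed distinct exons for 93.1% and of the merged exons for 18.1%. Levels between genes were therefore set as CPM per kb of merged exons, with FPKM as a second scale.

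Counts were tested with edgeR 4.0.16 in R 4.3.3 (filterByExpr, TMM, quasi-likelihood F test with robust moderation, 1 coefficient per group over 12 libraries, Benjamini-Hochberg over 16474 genes). The SE is the absolute log2 fold change over the square root of F. CPM are relative to TMM-scaled totals of tested genes. Alternatives were RLE and total-count scaling, DESeq2 1.42.0, voom in limma 3.58.1, other filters and thresholds, the 6 libraries compared alone, the replicate number as a block, leaving out each library, and, chosen after seeing the data, leaving out the 2 libraries that stand apart. The test was checked on simulated counts.

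The members and gene lists were chosen with earlier results of these data known. All members were named, and from each list up to 3 called genes per direction and contrast with the smallest adjusted p, of which the text gives a part. Some genes are not reported here. The 3 genes most like a member were taken by smallest difference at a mean log2 CPM of at least 1, and are given for 3 members.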

Additional observations from a re-analysis of the deposited data

Results flagged for a closer look

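The response to selinexor differed between the lines for 5 members, by the test of the difference (SU-DHL6 minus OCI-LY3, edgeR, log2 scale). It was -3.67 for FCRL5, which rose in OCI-LY3 and narrowly fell in SU-DHL6. It was -1.70 for FCRLA, which rose in OCI-LY3 and did not pass the test in SU-DHL6, although treated libraries lay above untreated ones in both lines. FCRLB, with 1.21, rose in SU-DHL6, while its OCI-LY3 libraries overlapped. FCRL2 had a fitted value of 6.57 and FCRL3 one of -4.08. These last values rest on OCI-LY3 groups with 0 counts (FCRL2, treated) and 2 counts (FCRL3, untreated), depend on the prior count and are no bound.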

How the results depend on the processing

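No called value changed sign under any alternative run. The counts of members called kept within 1.5 times of their values in OCI-LY3, in the difference of responses and between the lines under every alternative run. In SU-DHL6 the 2 called members became 4 with voom (FCRL1 and FCRL2 added), 3 with RLE scaling (FCRL2 added), 1 without a low-count filter, 1 with at least 1 CPM in 3 libraries, 1 at adjusted p under 0.01, 0 when a log2 change of at least 1 was also asked, and 1 without both libraries that stand apart. The cause was not tested, apart from the stricter rules, which remove calls by construction. Leaving out each library in turn gave 1 to 2. FCRL5 lost its call in SU-DHL6 in 9 of 12 such fits, with adjusted p of 0.0514 to 0.147. It kept it without untreated OCI-LY3 replicate 2 or 3 or treated SU-DHL6 replicate 2. FCRLB between the treated lines passed the test without treated OCI-LY3 replicate 3 (-0.59, adjusted p = 0.019) or without untreated SU-DHL6 replicate 1 (-0.43, adjusted p = 0.0421) or 3 (-0.46, adjusted p = 0.0466). With the replicate number as a block, 1 member was called in SU-DHL6 (FCRLB), and FCRL5 had adjusted p = 0.0719. The numbers do not pair the libraries: same-numbered deviations correlated at -0.12 to 0.054. Depth limits FCRL1 to FCRL4 in OCI-LY3, where 3 counts over a group stand for 0.0711 to 0.0761 CPM.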
